A study of Mus musculus with 6 samples.

Results

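Ms4a7, Ms4a6d, Ms4a6c and Ms4a4d (in capitals MS4A7, MS4A6D, MS4A6C and MS4A4D) are 4 mouse genes of the membrane-spanning 4A (MS4A) family. They were measured, with and without adenine, in BV2 cells, a retrovirally immortalised mouse cell line made from microglia, the brain's own macrophages. The genes' probes were found by gene symbol, ignoring case, and the genes were chosen by their intensity changes at the higher dose, which were already known. They are 4 of 17742 named genes and hold 6 of 20377 named probes: Ms4a6d and Ms4a6c have 2 probes each, and Ms4a7 and Ms4a4d have 1 each.

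All groups were cultures of the same cell line. Of 6 single-colour arrays, 2 were hybridised with RNA of untreated control cells, 2 with RNA of cells given a lower dose of adenine, a purine base, and 2 with RNA of cells given a higher dose. Exposure lasted 1 h per the treatment protocol. The titles and that protocol give 20 and 80 µM and the characteristics give 80 and 250 µM, so the doses are called lower and higher here. The design text speaks of separate cultures, but no title ties an array to a culture of its own. Errors and p-values may therefore reflect technical spread alone. With 2 arrays per group, their number limits the precision of every value.

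MS4A proteins cross the cell membrane several times, with both ends inside the cell, and several sit beside immune receptors. The family is best known for CD20 (Ms4a1) on B cells and for the beta chain of the high-affinity IgE receptor (Ms4a2) on mast cells. Ms4a7 is a macrophage gene used in the mouse brain to tell border and perivascular macrophages from resting microglia, which have little of it. The Ms4a6 and Ms4a4 genes are groups of close copies that multiplied in rodents, with Ms4a6c and Ms4a6d known from monocytes and macrophages.

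The bases before each start site are shown because Ms4a7 and Ms4a6c were higher at the higher dose, Ms4a4d was lower, and Ms4a6b is a close copy of Ms4a6c whose probe stayed near the bottom of the scale. Sequences are 250 bases up to the transcription start, 5′ to 3′, from RefSeq's GRCm38.p6 promoter table. The table matched 3 of the 4 members (Ms4a6d has no entry) and gives 2 start sites for Ms4a7. Capitals mark matches to a searched motif.
Ms4a7 upstream start, chr19:11336147-11336396, minus strand: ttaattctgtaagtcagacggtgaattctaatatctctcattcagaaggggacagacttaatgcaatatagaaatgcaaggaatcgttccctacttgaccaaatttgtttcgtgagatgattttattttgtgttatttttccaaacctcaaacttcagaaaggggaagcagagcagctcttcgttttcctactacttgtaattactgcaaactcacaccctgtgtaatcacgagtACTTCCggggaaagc
Ms4a7 downstream start, chr19:11334696-11334945, minus strand: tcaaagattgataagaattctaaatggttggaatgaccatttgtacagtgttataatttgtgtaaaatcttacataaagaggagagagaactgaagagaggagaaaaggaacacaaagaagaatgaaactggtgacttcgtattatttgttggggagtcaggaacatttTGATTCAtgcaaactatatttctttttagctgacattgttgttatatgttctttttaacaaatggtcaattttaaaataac
Ms4a6c, chr19:11469118-11469367, plus strand: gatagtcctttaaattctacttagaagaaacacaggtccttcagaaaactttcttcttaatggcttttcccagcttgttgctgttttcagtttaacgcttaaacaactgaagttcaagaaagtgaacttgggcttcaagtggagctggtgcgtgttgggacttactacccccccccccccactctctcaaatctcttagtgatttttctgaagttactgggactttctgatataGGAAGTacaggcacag
Ms4a4d, chr19:11536544-11536793, plus strand: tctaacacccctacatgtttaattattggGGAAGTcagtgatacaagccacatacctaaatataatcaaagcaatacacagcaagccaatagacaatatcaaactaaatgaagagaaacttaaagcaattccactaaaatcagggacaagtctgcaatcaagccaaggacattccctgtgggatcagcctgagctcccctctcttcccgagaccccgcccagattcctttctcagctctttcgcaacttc
Ms4a6b, chr19:11518309-11518558, plus strand: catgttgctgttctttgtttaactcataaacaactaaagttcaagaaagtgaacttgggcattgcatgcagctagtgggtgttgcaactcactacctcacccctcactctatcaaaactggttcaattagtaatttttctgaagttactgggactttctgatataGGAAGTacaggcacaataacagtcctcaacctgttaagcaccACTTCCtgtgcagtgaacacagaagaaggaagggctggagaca

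Motifs were searched on both strands. They were the core GGAAGT of ETS factors, the family of the macrophage factor PU.1, the interferon-stimulated response element, the interferon-gamma activated site TTCNNNGAA, the AP-1 site TGANTCA and the cAMP response element TGACGTCA. The ETS core lies 15 to 10 bases before the upstream start of Ms4a7, on the opposite strand, and 16 to 11 bases before the start of Ms4a6c. In Ms4a4d it lies 221 to 216 bases before the start, and Ms4a6b holds it on both strands. Of 32851 promoter windows of the same length, 19.7% hold this core, as do 9 of 19 windows of MS4A genes. The AP-1 site occurs only before the downstream start of Ms4a7 among the sequences shown, and in 6.75% of all windows. The interferon-stimulated element (2.98% of all windows), the interferon-gamma site (7.02%) and the cAMP element (1.55%) had no match in these sequences, which says only that these letters are not in these windows. In a local alignment, the windows of Ms4a6c and Ms4a6b matched at 148 of 180 aligned positions (82.2%), whereas no other pair of the windows aligned over more than 26 positions.

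Both higher-dose arrays differed from the other 4. Across probes brighter than the median, Pearson's r was 0.989 between these arrays, 0.929 to 0.941 between them and the rest, and 0.978 to 0.986 within the rest. Array medians as deposited ran from 125 to 170 units. The macrophage label was checked on 16 measured markers, of which 12 lay above the array median on all 6 arrays, among them Csf1r, Cd68 and Ptprc. The resting microglia genes Siglech (12 to 28 units), Gpr34 (39 to 59 units) and Cx3cr1 (79 to 126 units) lay below the array median on every array, whereas Tmem119, another of them, lay above it (187 to 319 units).

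At the higher dose, the signal of Ms4a7, Ms4a6d and Ms4a6c was higher than in control cells and that of Ms4a4d was lower. Before normalization, the Ms4a7 probe read 62 and 53 units in the controls, 78 and 75 at the lower dose, and 728 and 765 at the higher dose. Both higher-dose arrays lay far above the other 4, with no overlap. After quantile normalization, which gives all arrays the same distribution, its group means (on the log2 scale, turned back to units) were 62.5, 69.2 and 813 units for control, lower dose and higher dose. This is a 13-fold difference between the higher dose and control (log2 3.70 ± 0.21, SE from the limma fit, n = 2 per group). The Ms4a7 probe was brighter than 31.4% to 38.1% of all probes on the control and lower-dose arrays and than 73.8% to 75.1% on the higher-dose arrays. By this change Ms4a7 ranked 12 of 17742 named genes from the largest rise. These higher-dose values are those known when the members were chosen, so they are a description and carry no test.

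Ms4a6d was measured by 2 probes that gave like values. Its brighter probe read 460 and 413 units in the controls, 510 and 611 at the lower dose, and 2624 and 1998 at the higher dose. The other probe read 398 and 431, 490 and 482, and 1976 and 1803 units in the same order. On each probe the higher-dose arrays lay above all others. The differences between the higher dose and control were 5.41-fold (log2 2.44 ± 0.19) and 4.72-fold (log2 2.24 ± 0.15).

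Ms4a6c also had 2 probes, which differed in size of change. Its brighter probe read 102 and 120 units in the controls, 149 and 167 at the lower dose, and 440 and 462 at the higher dose, a 4.03-fold difference between the higher dose and control (log2 2.01 ± 0.16). The other probe read 136 and 135, 171 and 144, and 350 and 292 units, a 2.28-fold difference (log2 1.19 ± 0.22). The first probe, which stands for the gene, is the brighter by its mean over all arrays, but in the controls it was the dimmer one, so its rise decided that choice. The direction was the same on both probes, and the mean of both gave a log2 change of 1.60. Ms4a6b, Ms4a6c and Ms4a6d are close copies, and probe sequences were not used here, so whether a probe also binds a copy's transcript was not tested.

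Ms4a4d went the other way. Its probe read 20 and 25 units in the controls, 40 and 36 at the lower dose, and 7 and 9 at the higher dose, a 3.08-fold lower signal at the higher dose (log2 −1.62 ± 0.26). The higher-dose arrays lay below all others without overlap, but the probe was dim throughout, brighter than 18.5% to 24.4% of probes on the control and lower-dose arrays and than 6.20% and 8.94% on the higher-dose ones. No detection flag came with the values. The log2 change shrank to −0.76 on the log2(value + 16) scale, which damps differences between dim values.

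**Figure D1:**
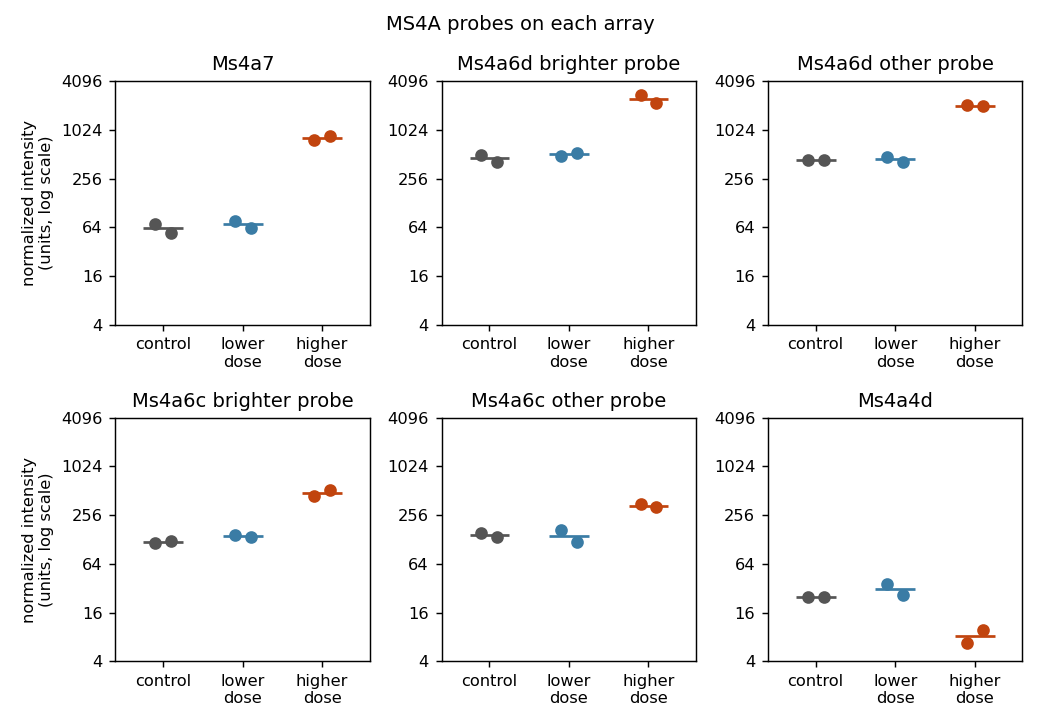
Normalized intensity (units, log scale) of the 6 MS4A probes on each array by group, with bars at the group mean of the log2 values. The higher-dose arrays lie above all others for Ms4a7, Ms4a6d and Ms4a6c, at 769 and 859 units for Ms4a7, and below all others for Ms4a4d, at 6.83 and 9.67 units.

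By gene, 3 of 4 members had both higher-dose arrays above both controls and 1 had them below. Among all named genes, 30.1% were separated upward and 32.9% downward in this comparison, and nothing is read from the members' count, since their choice used it. The median log2 change of the 4 members was 2.22, beside −0.02 for all named genes. Nothing is read from this gap either, since the members were chosen by these changes. Over the higher-dose comparison, changes of genes followed gene span (Spearman's rho = −0.326 across 10269 genes, which are not independent replicates), shorter genes being higher. The members span 15.1 to 21.7 kb in the GRCm38.p6 annotation. With the trend taken out, log2 changes were 3.68 for Ms4a7, 2.44 for Ms4a6d, 2.02 for Ms4a6c and −1.59 for Ms4a4d.

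The lower dose was tested, since the choice of members did not rest on those arrays, although the controls are shared. None of the 4 members passed in limma: log2 changes were 0.15 ± 0.21 for Ms4a7 (adjusted p = 0.888), 0.16 ± 0.19 for Ms4a6d (adjusted p = 0.868), 0.26 ± 0.16 for Ms4a6c (adjusted p = 0.782) and 0.31 ± 0.26 for Ms4a4d (adjusted p = 0.821). At an unadjusted p of 0.05, 0 members passed, against 1681 of all 26423 probes. With adjustment, 0.0169% of named genes passed in this comparison. On values as deposited, 4 of 4 genes had both lower-dose arrays above both controls, as did 40% of all named genes. The medians of those arrays, 143 and 170 units, were above the control medians of 125 and 137 too. After normalization this held for 2 of 4 genes, Ms4a6c and Ms4a4d, beside 18.5% of all named genes. By probe it held for 2 of 6, and the other Ms4a6c probe overlapped. In limma the other probes of Ms4a6d and Ms4a6c had log2 changes of 0.03 ± 0.15 and −0.04 ± 0.22 (adjusted p = 0.976 and 0.974). The sign for Ms4a7 turned without control replicate 2 (log2 −0.038).

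The higher-dose arrays were also set against the lower-dose ones, a comparison that shares those arrays with the one above. Log2 differences were 3.55 ± 0.21 for Ms4a7, 2.28 ± 0.19 for Ms4a6d, 1.75 ± 0.16 for Ms4a6c and −1.93 ± 0.26 for Ms4a4d, given as a description. By the probe that stands for each gene, Ms4a7, Ms4a6d and Ms4a6c ran, from the highest level down, from the higher dose to the lower dose to control. Ms4a4d ran from the lower dose to control to the higher dose. The other Ms4a6c probe was instead higher in control than at the lower dose (normalized means of 147 and 143 units, with overlapping arrays). In each case lower dose and control were neighbours whose difference did not pass the test.

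**Figure D2:**
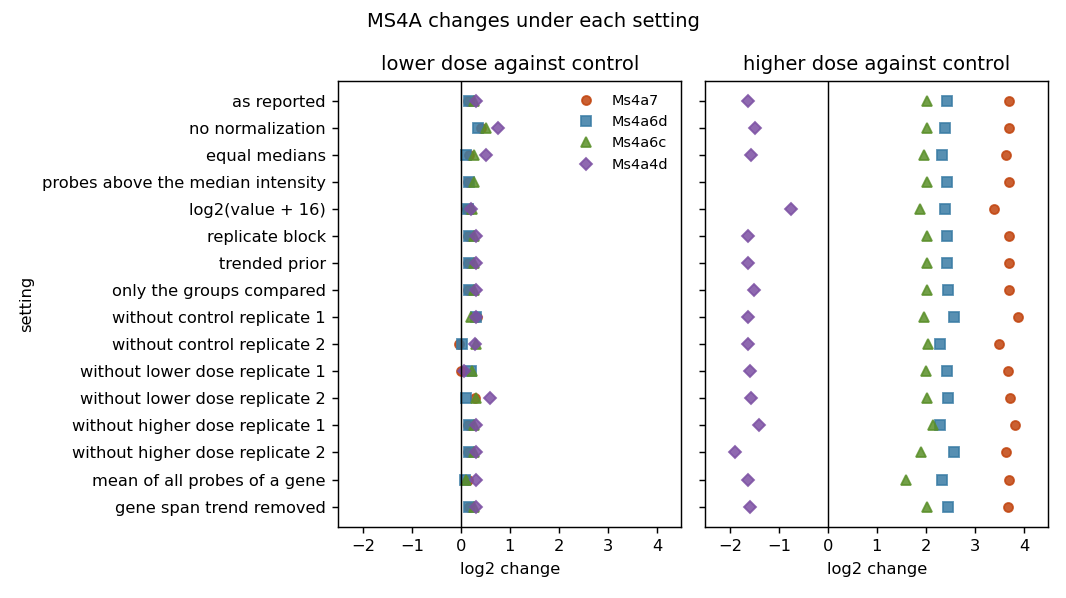
Log2 change of each MS4A gene (x axis) at the lower dose (left) and the higher dose (right) under each setting of the processing (y axis). The higher-dose changes keep their sign under every setting shown, from 3.40 to 3.87 for Ms4a7 and from −1.90 to −0.76 for Ms4a4d, whereas the lower-dose changes are smaller and lie on both sides of 0 for Ms4a7. Keeping only probes above the median intensity, the trended prior and the replicate block cannot move an estimate, so these settings support nothing. The higher-dose and control arrays did not overlap for any member, so leaving out an array could hardly turn a higher-dose sign either.

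In the GRCm38.p6 gene table the members belong to 1 run of 21 MS4A genes on chromosome 19, of which 19 were measured here. Ms4a7 is the 12th MS4A gene along this run, Ms4a6c the 16th, Ms4a4d the 18th and Ms4a6d the 19th. Ms4a4d, which was lower at the higher dose, is thus the MS4A gene next to Ms4a6d, which was higher. None of the other 15 measured MS4A genes passed at the higher dose in limma (adjusted p 0.0643 to 0.938). Among all named genes, 6.37% passed as higher and 5.39% as lower. At an unadjusted p of 0.05, 2 of the 15 passed. The share of all genes at that level was not counted, so nothing is read from the 2. Several of the 15 probes read near the bottom of the scale, where a missing call does not show that nothing changed. The median log2 change of the 15 genes was 0.26.

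Between Ms4a7 and Ms4a6c lie Ms4a4a, known from human macrophages, which read 5 to 16 units on all arrays (log2 0.83 ± 0.36, adjusted p = 0.204), and Ms4a4c, which read 24 to 45 units (−0.05 ± 0.15, adjusted p = 0.843). Ms4a6b, between Ms4a6c and Ms4a4d, went from 0 and 8 units in the controls to 10 and 8 at the higher dose (log2 1.65 ± 0.97, adjusted p = 0.332). The control value of 0 was set to 1 before taking logs, and the log2 change was 0.13 without that array (control replicate 1) and 3.20 without control replicate 2. Whether the change of Ms4a6b differs from that of Ms4a6c, its closest match in the sequences above, was not tested. The B-cell gene Ms4a1 read 6 to 13 units and the mast-cell gene Ms4a2 11 to 37 units. Ms4a3, a gene of granulocyte and monocyte precursors, went from 4 and 4 units to 9 and 16 (log2 1.62 ± 0.40, adjusted p = 0.0643). Over its 14 alternative settings the change of Ms4a3 ran from 0.55 to 2.20 and the adjusted p from 0.0444 to 0.206, and it passed in 1 of them. Ms4a8a read 159 to 264 units (log2 0.32 ± 0.16, adjusted p = 0.255). The remaining measured MS4A genes, Ms4a5, Ms4a10, Ms4a13, Ms4a14, Ms4a15, Ms4a18, Ms4a19 and Ms4a20, did not pass either.

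**Figure D3:**
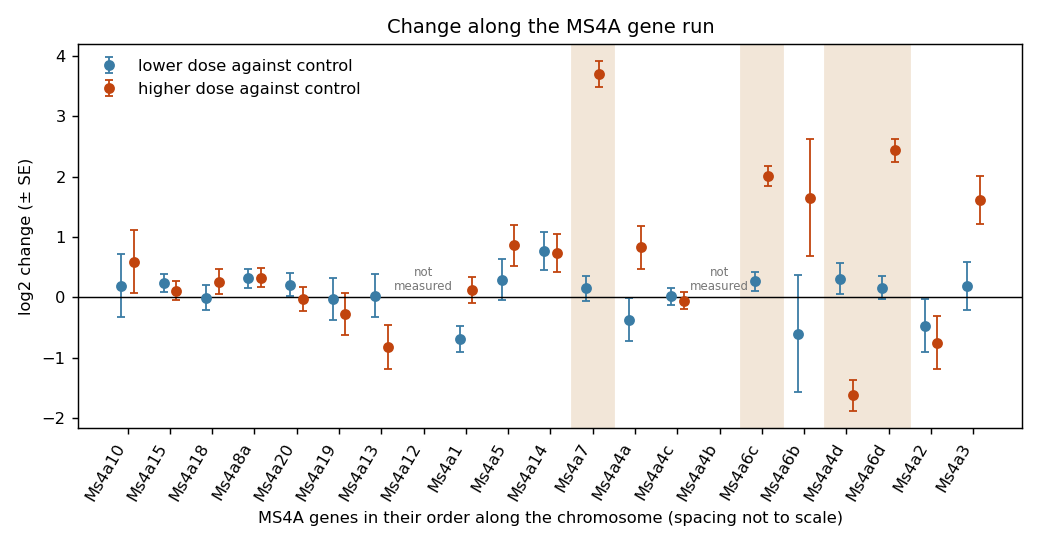
Log2 change (± SE) of the MS4A genes in their order along chromosome 19, at the lower and higher dose against control, with the 4 members shaded. Ms4a7, Ms4a6c and Ms4a6d are high at the higher dose, at 3.70, 2.01 and 2.44, with Ms4a4d at −1.62. Ms4a6b and Ms4a3 have wide error bars around 1.65 and 1.62.

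None of the measured genes beside the run passed at the higher dose. The nearest measured genes on 1 side, Zp1, Ptgdr2 and Ccdc86, had log2 changes of 0.10, 0.18 and 0.13 at the higher dose (adjusted p = 0.726, 0.722 and 0.689). On the other side, Oosp2, Oosp1 and Oosp3 had −0.35 ± 0.98, 0.16 ± 0.89 and 0.07 ± 0.52 (adjusted p = 0.850, 0.930 and 0.950). These 3 probes read −1 to 15 units, too dim to show either a change or its absence. Of the genes inside the run that are not MS4A genes, the long noncoding AW112010 (0.16 ± 0.16, adjusted p = 0.575) and Gm8369, next to Ms4a6b (−0.79 ± 0.38, adjusted p = 0.245), were measured and did not pass. Gm8369 read 2 to 5 units on all arrays.

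Tmem176a and Tmem176b, distant relatives of the MS4A genes that encode membrane proteins of macrophages and dendritic cells, lie outside the run. Tmem176a read 552 and 642 units in the controls, 499 and 621 at the lower dose, and 1415 and 1675 at the higher dose, and rose 2.73-fold (log2 1.45 ± 0.18, adjusted p = 0.0204). Its dimmer probe had log2 1.22 ± 0.41 (adjusted p = 0.126). Tmem176b did not pass (log2 0.62 ± 0.17, adjusted p = 0.0784), though it did in 5 other settings, and its dimmer probe had log2 0.07. In all, 1 of 17 measured relatives rose and 0 fell at the higher dose, beside 6.37% of named genes that rose and 5.39% that fell. At the lower dose 0 of 17 passed in limma, with 1 at an unadjusted p of 0.05.

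Several MS4A proteins work beside activating receptors whose signal runs through ITAM adaptors, short tails that recruit the kinase Syk. A list of activating receptors, inhibitory ones (Cd33, Pilra, Fcgr2b), adaptors and signalling enzymes was examined. Of its 19 measured genes, 6 rose and 3 fell at the higher dose (median log2 change 0.22), beside 6.37% of named genes that rose and 5.39% that fell. Whether passing or not, the change was positive for 10 and negative for 9. The C-type lectin receptor Clec4d rose 5.89-fold (log2 2.56 ± 0.14, adjusted p = 0.0118), and Hcst, an adaptor without an ITAM, rose 3.02-fold (log2 1.59 ± 0.17, adjusted p = 0.0198). Fcer1g, the adaptor chain shared by Fc receptors, rose 2.29-fold (log2 1.20 ± 0.15, adjusted p = 0.0208). The inhibitory receptor Pilra had log2 1.56 (adjusted p = 0.0199). Trem2, a lipid receptor of microglia, had log2 1.14 ± 0.26 (adjusted p = 0.0567) and passed in 6 other settings. The receptor Trem1 was lower at the higher dose and did not pass (log2 −0.73 ± 0.21, adjusted p = 0.0881). The genes that fell encode signalling proteins: Card9 fell 2.45-fold (log2 −1.29 ± 0.21, adjusted p = 0.0296), the kinase Btk 2.22-fold (−1.15 ± 0.23, adjusted p = 0.0428) and the phospholipase Plcg2 1.79-fold (−0.84 ± 0.17, adjusted p = 0.0430). Clec4d and Hcst were named for having the smallest p of this list at the higher dose. Fcer1g, Pilra, Trem1, Trem2, Card9, Btk and Plcg2 were named after their values were seen. The list itself was written with earlier results of these data known. At the lower dose 0 of the 19 passed.

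Markers of border and perivascular macrophages, the cells Ms4a7 marks in the brain, were examined too. Of 11 measured, 2 rose and 0 fell at the higher dose, beside 6.37% of named genes that rose and 5.39% that fell. Their median log2 change was 0.38. The change was positive for 9 and negative for 2, F13a1 (−0.44) and Ccr2 (−0.12). Pf4 and Cbr2 were named for having the smallest p of this list at the higher dose. The chemokine Pf4 rose 5.2-fold (log2 2.38 ± 0.27, adjusted p = 0.0199), from 3365 and 5353 units to 23465 and 29379. The carbonyl reductase Cbr2 rose 5.06-fold (log2 2.34 ± 0.16, adjusted p = 0.0163), from 739 and 706 units to 3828 and 3417. Cd163, a scavenger receptor of these cells, read 1 to 7 units on all arrays, and Mrc1, the mannose receptor, had log2 0.59 (adjusted p = 0.199). The summed intensity of the 11 markers was 6880 to 9361 units in the controls, 10351 to 10460 at the lower dose and 31736 to 36653 at the higher dose. Pf4 and Cbr2 made most of this difference: the other 9 markers summed to 2776 to 3302, 3483 to 4055 and 3857 to 4443 units. Their part in the members' values was not tested.

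Of the 16 microglia and macrophage markers, 2 rose and 0 fell at the higher dose, beside 6.37% of named genes that rose and 5.39% that fell. The markers' median log2 change was −0.13. It was positive for 6 markers and negative for 10, among them Csf1r (−0.48) and Adgre1 (−0.49), neither of which passed. Aif1 and Itgam were named for having the smallest p of this list at the higher dose. The calcium-binding Aif1 rose 4.19-fold (log2 2.07 ± 0.16, adjusted p = 0.0167) and the integrin Itgam 1.71-fold (log2 0.77 ± 0.16, adjusted p = 0.0435). Of 35 measured markers of B cells, mast cells, T cells, endothelium, astrocytes, neurons and oligodendrocytes, 0 passed in limma (8 at an unadjusted p of 0.05). The share of all genes at that unadjusted level was not counted, so nothing is read from the 8. At the lower dose 0 markers of these lists passed. In bulk RNA, more cells with a transcript and more transcript per cell cannot be told apart. Each higher-dose call named here, except that of Pilra, which was not examined, was lost in all 4 fits that left out 1 control or higher-dose array. Those fits leave 1 array in a group. Btk, Plcg2 and Itgam also lost theirs without normalization, and these and Card9 in a fit of only the groups compared. Of 15 alternatives in all, Btk and Itgam passed in 5, Plcg2 in 6 and Card9 in 7.

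**Figure D4:**
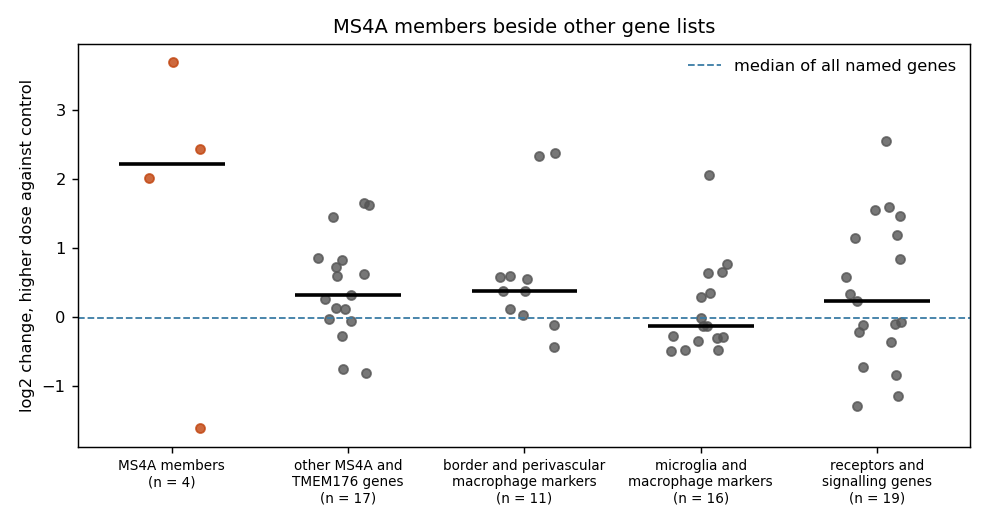
Log2 change at the higher dose against control of each gene (points) in 5 lists, with bars at list medians and a dashed line at the median of all named genes. The members spread from −1.62 to 3.70, and the medians of the other lists lie between −0.13 and 0.38. The members were chosen by this change, so their distance from the other lists supports nothing.

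The pattern of each member was compared over the 6 arrays with those of 10282 genes, by the Euclidean distance between log2 values centred on each gene's mean. These genes were above the median by their mean over all arrays, so a gene could enter through its higher-dose arrays. Apoc1, named below, read 85 and 109 units in the controls, under their medians of 125 and 137, and 727 and 738 at the higher dose. Nearest to Ms4a7 were Isg15, a ubiquitin-like protein induced by interferon (distance 0.80), the complement gene C1qa (0.97), the apolipoprotein gene Apoc1 (1.07), the complement gene Cfp (1.21) and the chemokine gene Ccl7 (1.26). Their log2 changes at the higher dose ran from 2.53 to 2.98, so none was as large as that of Ms4a7. Nearest to Ms4a6d were Prss50 (0.27) and Pla2g2e (0.27), nearest to Ms4a6c were Afp (0.13) and Ndufa7 (0.16), and nearest to Ms4a4d were Zwilch (0.36) and Gclc (0.37). These distances describe 6 arrays of 3 groups and carry no test.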

How the data were processed

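Cy5-labelled cDNA was hybridised to single-colour Phalanx mouse OneArray slides, per the labels' protocols. Each deposited value is a probe's intensity (linear, with some values below 0, as after background subtraction). RMA is named in the submitters' processing notes, yet array medians differ, so the values were treated as not normalized. The scanner and background method were not given in the sources used here.

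Arrays were quantile-normalized, values under 1 set to 1, and log2 taken. All 6 arrays were fitted with the limma package (3.58.1, lmFit and eBayes, R 4.3.3, two-sided, a mean for each group and 3 residual degrees of freedom), with Benjamini-Hochberg adjustment over all 26423 probes at 0.05. The fit was tested on simulated data. Of the probes, 20377 have 1 symbol in the platform's annotation, which can be old, and 6046 are unnamed here. Symbols were updated through a RefSeq table of GRCm38.p6 (18213 exact matches ignoring case, 2126 by a unique synonym, 38 kept). The brightest probe stands for a gene. Groups came from titles.

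The members and gene lists were chosen with earlier results of these data known. The rule for named genes took every member probe, the other measured MS4A genes, 2 genes with the smallest p per list (given for macrophage and receptor lists), genes flanking or inside the MS4A run, and the nearest patterns. Alternatives were other normalizations, log2(value + 16), a filter on dim probes, a trended prior, a replicate block, fits of only the groups compared or without each array in turn, averaging a gene's probes, and removing the trend with gene span. Figures used Python 3.11.15 and matplotlib 3.10.9.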

Additional observations from a re-analysis of the deposited data

How the results depend on the processing

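The higher-dose changes of the 4 MS4A genes kept their sign under all alternatives run, 15 for each gene and 14 for Ms4a4d, which is too dim for the filter. The filter, the trended prior and the replicate block leave a log2 estimate as it is, as does averaging for a gene with 1 probe. Signs kept in these settings were thus fixed in advance and support nothing. For each member the higher-dose and control arrays did not overlap, with or without normalization. Leaving out 1 array, fitting only the groups compared or damping dim values could therefore hardly turn a sign either. The members were also chosen by these changes, so the kept signs are a description. The members' median at the higher dose was 2.22. It was 1.97 with each gene's probes averaged and 2.17 to 2.26 without 1 array. Among probes above the median intensity, a filter on the mean over all arrays that drops Ms4a4d, it was 2.44. Ms4a7 is above the median only on its higher-dose arrays. Ms4a6c was brighter than 46.2% and 47.5% of probes on the controls and than 67.1% and 69.1% on the higher-dose arrays. The 2.44 therefore supports nothing. Against the lower dose the members' median was 2.01, and it was 1.78 without normalization, 1.87 with probes averaged, and 2.00 to 2.03 without 1 array. Among brighter probes it was 2.28, which supports nothing for the same reason. At the lower dose it was 0.21, was 0.46 without normalization, where the median of all probes stood at 0.22, and ran from 0.14 to 0.30 without 1 array. Ms4a7 at the lower dose (0.15) ran from −0.038 (without control replicate 2) to 0.34 without 1 array, and was −4.45e-05 without lower-dose replicate 1.

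Counts of probes called depended on the setting. At the lower dose 3 passed, but 0 with equal medians, the replicate block or only the groups compared, 1 among brighter probes and 0 to 9 without 1 array. At the higher dose 2803 passed, but 5524 among brighter probes, 4764 with log2(value + 16), 5000 with a trended prior, 1615 with only the groups compared, 11 with the replicate block and 6 to 1589 without 1 array. Between the doses 3629 passed, but 6163, 5645 and 5762 in the first 3 of those settings, 7 with only the groups compared, 1395 with the replicate block and 6 to 26 without 1 array. Over all settings, list counts at the higher dose ran from 0 to 3 for the MS4A relatives, 0 to 12 for receptors, 0 to 5 for each macrophage list and 0 to 2 for each other cell type. Fits without 1 array have fewer residual degrees of freedom. Deviations of arrays with the same replicate number correlated at 0.03, 0.31 and −0.23, so the numbers were not taken to pair the arrays. The block left the members' log2 changes as they were. It ended each higher-dose call named in the text except that of Pilra, which was not examined. No detection flags were given, so how far the dim Ms4a4d and Ms4a6b probes lie above background was not tested.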
